A study of Mus musculus with 59 samples.

Results

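The genes described here set how much active glucocorticoid reaches its receptor in mouse liver: the receptor Nr3c1, its co-chaperone Fkbp4, the plasma carrier Serpina6, the enzymes Hsd11b1 and H6pd that regenerate the hormone, and the reductases Akr1d1 and Srd5a1 that inactivate it. They were named as a pathway and found as Affymetrix probe sets whose single platform gene symbol is 1 of these 7 genes, and where a gene had several, the one brightest on average over the 59 arrays stood for it. This gave 14 probe sets for 6 genes of the 18193 genes with such a probe set, and Srd5a1 was not analysed here. Male C57BL/6 mice, 6 weeks old, spent 2 weeks on LRD-5001, a grain-based laboratory chow, or on AIN-76A, a purified diet, before treatment. On each diet there were 4 groups after 5 weeks: controls without added arsenite, 10 ppb sodium arsenite in drinking water, 100 ppb in drinking water, and 10 ppb in repelleted food. Each of these groups had 5 arrays except AIN-76A with 100 ppb in water, which had 4, so these 8 groups held 39 arrays. In the remaining 4 groups, 20 arrays in all, mice on AIN-76A were taken 8 h after an intraperitoneal injection of dexamethasone, sodium arsenite, both agents, or saline, with each agent given at 1 mg/kg. No genotype beyond the strain is labelled, and the labels call the arrays biological replicates without naming the animals, so p-values measure the spread between these arrays.

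As background, corticosterone, the main glucocorticoid of mice, travels in blood bound to corticosteroid-binding globulin, the Serpina6 product, which the liver secretes. In the endoplasmic reticulum of hepatocytes, 11-beta-hydroxysteroid dehydrogenase type 1 (Hsd11b1) turns inert 11-dehydrocorticosterone back into corticosterone, using NADPH that hexose-6-phosphate dehydrogenase (H6pd) makes from glucose 6-phosphate. Steroid 5-beta-reductase (Akr1d1) and 5-alpha-reductase (Srd5a1) remove active hormone, and Akr1d1 also acts in bile acid synthesis. The receptor (Nr3c1) waits in the cytoplasm with Hsp90 and immunophilins: Fkbp4 (FKBP52) favours its transport to the nucleus, and Fkbp5 (FKBP51), itself a receptor target, opposes it. Dexamethasone is a synthetic glucocorticoid that binds the receptor directly.

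The values are deposited log2 intensities, for which array number limits the precision, and a difference is a difference of log2 values. After subtracting group means, the 12 arrays at 1 end of the first principal component (27.4% of the variance) were taken as lying apart. Their number was set to the number of groups, and 1 of them fell in each group. Results that changed without these arrays are given with that value. The labelled tissue was borne out by hepatocyte markers, with Alb between 13.60 and 13.98 and Ttr between 13.17 and 13.62 on every array, while the adrenal markers Cyp11b1 and Cyp11a1 stayed between 1.71 and 2.96. As a check of the injection labels, Fkbp5 lay between 8.61 and 10.20 on the 10 arrays with dexamethasone and between 4.46 and 8.54 on the 10 arrays without it. In liver tissue, fewer cells of a type and less RNA per cell cannot be told apart.

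Diet was the comparison in which these genes were called. Averaged over the 4 exposure levels, LRD-5001 livers had 2.04-fold more Akr1d1 and 1.31-fold less H6pd than AIN-76A livers, and the other 4 measured genes did not pass the test. That is 2 of 6 genes, where 4.26% of all probe sets passed in the same comparison (limma, Benjamini-Hochberg over 45037 probe sets, threshold 0.05). Such shares are no like-for-like background, since the mean of each of the 6 genes exceeded that of 93.0% to 99.4% of all probe sets. The genes were also chosen with earlier results of these data known. At 100 ppb in water, Nr3c1 and Akr1d1 rose and H6pd fell on LRD-5001 against AIN-76A, 3 of 6 genes against a background of 2.05%. That count was 5 without the arrays that lay apart, 0 when only the compared groups were fitted, and between 0 and 5 when single arrays were left out. Over all probe sets, 2178 passed without the arrays that lay apart and 38 with only the compared groups, against 924 in the main fit. In the diet comparisons of control mice (background 0.568%), of mice with 10 ppb in water (0.344%) and of mice with 10 ppb in food (0.295%), 0 of 6 genes passed, with 2, 0 and 0 at an unadjusted p under 0.05. Of the 45037 probe sets, 3249, 3358 and 2222 had an unadjusted p under 0.05 there. The median difference of the 6 genes was 0.24 in the averaged comparison and 0.69 at 100 ppb in water, against medians over all genes of -0.01 in both.

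**Figure D1:**
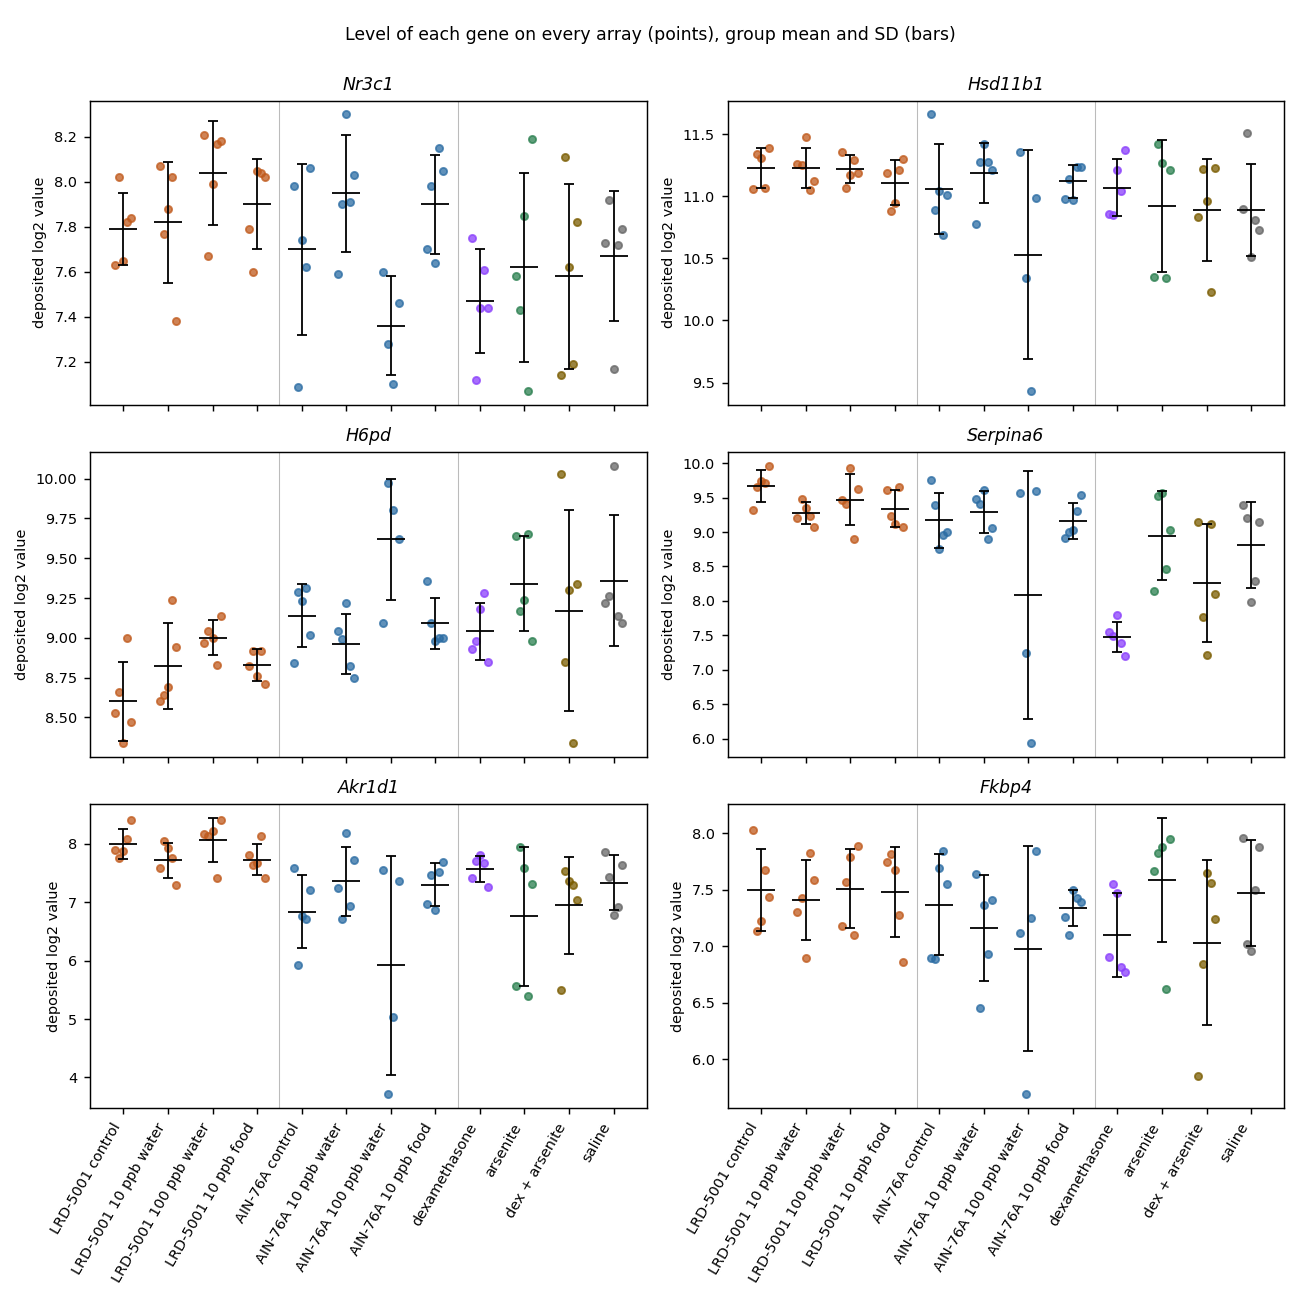
Deposited log2 value of each gene (y axis) on each of the 59 arrays (points) in the 12 groups (x axis), with black bars for the group mean and SD. Akr1d1 and Serpina6 spread most in AIN-76A mice with 100 ppb in water (SD 1.87 and 1.80), and all 5 dexamethasone arrays lie below all saline arrays for Serpina6.

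Akr1d1, which reduces the steroid A ring, had the larger diet difference. Its control values were 7.89, 7.76, 7.87, 8.08 and 8.41 on LRD-5001 (replicates B to F) and 7.59, 5.93, 6.76, 6.72 and 7.21 on AIN-76A (replicates B to F). Every LRD-5001 control lay above every AIN-76A control. The difference was 1.16 (SE 0.42) and did not pass over all probe sets (adjusted p = 0.376). Akr1d1 was the only member of the 6 with separate control groups, as were 1.85% of all probe sets. At 100 ppb in water the LRD-5001 arrays gave 8.16, 8.14, 8.22, 7.41 and 8.41 (replicates A, B, D, E and F), and the AIN-76A arrays gave 7.56, 3.71, 5.04 and 7.37 (replicates A to D). Here AIN-76A replicates B and C were far below all other arrays of both groups, while replicate A lay within the LRD-5001 range and replicate D just under it. The difference was 2.15 (SE 0.45, adjusted p = 0.00625), a 4.43-fold higher level, and it did not pass without AIN-76A replicate B (1.41, adjusted p = 0.0725) or with only the compared groups in the fit (adjusted p = 0.245). At 10 ppb the diets overlapped: the difference was 0.36 (SE 0.42) in water, with LRD-5001 arrays at 7.29 to 8.04 and AIN-76A arrays at 6.72 to 8.18, and 0.43 (SE 0.42) in food, with LRD-5001 arrays at 7.42 to 8.14 and AIN-76A arrays at 6.86 to 7.69. The averaged difference of 1.03 (SE 0.21, adjusted p = 0.002) rested in part on the 100 ppb level. Without that level, an alternative added after seeing the data, it was 0.65 (SE 0.24, adjusted p = 0.229). A second probe set of Akr1d1 passed as well, with an averaged difference of 1.00 (SE 0.20, adjusted p = 0.00099) and a difference at 100 ppb of 1.63 (SE 0.41, adjusted p = 0.0256).

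In the order of the 12 group means Akr1d1 was highest in the 4 LRD-5001 groups, from 8.07 ± 0.38 at 100 ppb in water to 7.72 ± 0.30 at 10 ppb in water (SD, n = 5 each). The lowest were arsenite-injected mice at 6.76 ± 1.19 (SD, n = 5) and AIN-76A mice with 100 ppb in water at 5.92 ± 1.87 (SD, n = 4). Of the 11 steps between neighbours in this order, 1 was larger than the larger SD of its groups, between LRD-5001 controls (8.00 ± 0.26) and LRD-5001 with 10 ppb in food (7.73 ± 0.26). For the other 5 genes no step between neighbours exceeded the larger SD.

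H6pd, the source of NADPH for Hsd11b1 in the endoplasmic reticulum, went the opposite way. Control values were 8.53, 8.66, 8.34, 9.0 and 8.47 on LRD-5001 (replicates B to F) and 8.84, 9.29, 9.23, 9.31 and 9.02 on AIN-76A (replicates B to F). LRD-5001 replicate E was the only array of its group within the AIN-76A range. The difference of -0.54 (SE 0.14) missed the threshold at an adjusted p of 0.061, and it passed without LRD-5001 replicate E (-0.64, adjusted p = 0.0199) or without AIN-76A replicate B (-0.61, adjusted p = 0.0253). At 100 ppb in water the LRD-5001 arrays gave 8.97, 9.04, 9.0, 8.83 and 9.14 (replicates A, B, D, E and F) and the AIN-76A arrays 9.09, 9.97, 9.80 and 9.62 (replicates A to D). Only AIN-76A replicate A overlapped the LRD-5001 arrays. H6pd fell by 0.62 on the log2 scale (SE 0.14, adjusted p = 0.0146) on LRD-5001 there, and the call was lost without AIN-76A replicate B (-0.51, adjusted p = 0.116) or C (-0.56, adjusted p = 0.0603), with all 59 arrays in 1 fit (adjusted p = 0.0955) and with only the compared groups in the fit (adjusted p = 0.155). With 10 ppb in food all LRD-5001 arrays (8.71 to 8.92) lay below all AIN-76A arrays (8.98 to 9.36), which held for 1 of the 6 genes and for 1.43% of all probe sets. That difference was -0.26 (SE 0.14) and did not pass (adjusted p = 1). The averaged difference was -0.39 (SE 0.07, adjusted p = 0.000259), and without the 100 ppb level it was -0.31 (SE 0.08, adjusted p = 0.0204). LRD-5001 groups took 4 of the 5 lowest places among the 12 group means, from 9.0 ± 0.11 to 8.60 ± 0.25 (SD, n = 5), and AIN-76A with 100 ppb in water was highest at 9.62 ± 0.38 (SD, n = 4).

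The promoters of H6pd and Akr1d1, the genes called in the averaged diet comparison, are shown as RefSeq gives them for GRCm38.p6, each with 250 bases before and 50 after the start site, 5′ to 3′ on the gene's strand. Capitals mark matches to any of 4 motifs searched on both strands: the D-box TTATGTAA, bound by Dbp, Tef, Hlf and Nfil3; AGAACA, the hexamer the glucocorticoid receptor recognises; the E-box CACGTG; and GAANNTTC, a pair of heat shock units. The H6pd window is chr4:150003187-150003486 on the minus strand, and its start site lies 5787 bases inside the outer edge of the gene. The Akr1d1 window is chr6:37529923-37530222 on the plus strand, with its start site 195 bases inside the outer edge.
H6pd: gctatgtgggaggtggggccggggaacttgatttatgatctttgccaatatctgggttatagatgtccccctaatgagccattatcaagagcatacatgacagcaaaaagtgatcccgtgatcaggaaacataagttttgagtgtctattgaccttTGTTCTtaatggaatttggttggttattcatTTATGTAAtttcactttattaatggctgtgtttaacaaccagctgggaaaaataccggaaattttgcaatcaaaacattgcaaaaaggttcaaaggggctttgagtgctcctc
Akr1d1: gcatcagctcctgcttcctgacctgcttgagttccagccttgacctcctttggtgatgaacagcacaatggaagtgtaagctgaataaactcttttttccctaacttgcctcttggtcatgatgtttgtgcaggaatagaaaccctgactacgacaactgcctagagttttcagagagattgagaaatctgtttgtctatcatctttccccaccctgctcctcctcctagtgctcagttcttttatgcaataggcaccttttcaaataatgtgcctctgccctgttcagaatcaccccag
The H6pd window holds a D-box starting 63 bases before the start site, and 0.938% of the 32851 RefSeq promoters of this length hold one. It also holds TGTTCT, the reverse strand of AGAACA, 94 bases before the start site, a match found in 19.0% of the promoters. Akr1d1 holds none of the 4 motifs, which says only that these letters are not in this window. CACGTG was found in 7.15% and GAANNTTC in 7.86% of all promoters. Among the D-box factors, averaged over the exposure levels, Dbp rose on LRD-5001 by 2.85 (SE 0.36, adjusted p = 8.84e-07) and Tef by 0.91 (SE 0.10, adjusted p = 4.04e-08), and Nfil3 fell by 1.41 (SE 0.12, adjusted p = 2.16e-10), while Hlf did not pass (0.11, SE 0.15, adjusted p = 0.814). Their part in the H6pd difference was not tested.

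**Figure D2:**
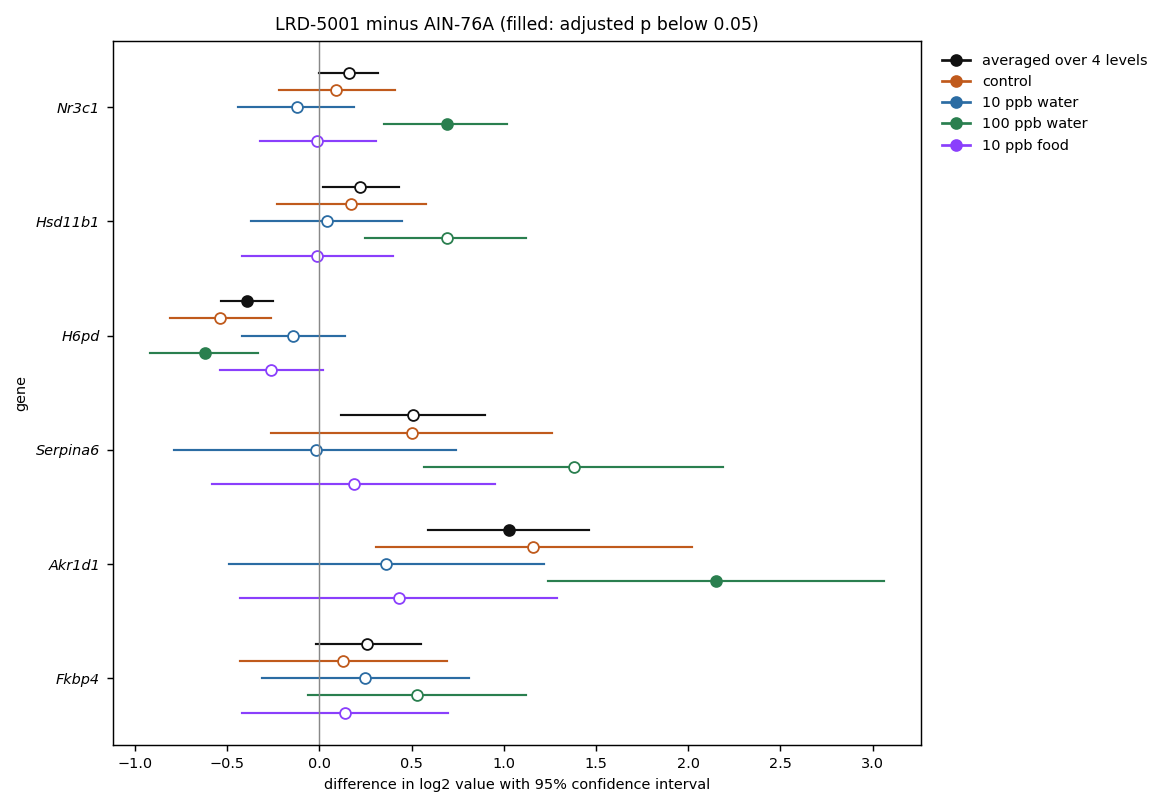
Difference in log2 value, LRD-5001 minus AIN-76A, with its 95% confidence interval (x axis) for each gene (y axis), averaged and at each exposure level; filled points passed the test. H6pd lies left of 0 at every level, though its intervals at 10 ppb in water and 10 ppb in food include 0. At 100 ppb in water the intervals of Nr3c1, Hsd11b1, H6pd, Serpina6 and Akr1d1 exclude 0, and that of Fkbp4 does not.

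Serpina6, the carrier globulin, was not called between diets. In controls it read 9.32, 9.65, 9.74, 9.71 and 9.96 on LRD-5001 and 9.76, 9.40, 8.76, 8.96 and 9.0 on AIN-76A (replicates B to F in both), and the groups overlapped. The difference was 0.50 (SE 0.38, adjusted p = 0.9). At 100 ppb in water the LRD-5001 arrays read 9.47, 9.41, 9.93, 8.90 and 9.63 (replicates A, B, D, E and F), and the AIN-76A arrays read 9.56, 7.25, 5.94 and 9.60 (replicates A to D). AIN-76A replicates A and D were thus as high as the LRD-5001 arrays, and B and C were lower than every other array of the 8 groups exposed for 5 weeks. The difference was 1.38 (SE 0.40, adjusted p = 0.0614). It passed without the arrays that lay apart (1.77, adjusted p = 0.0139), and also without AIN-76A replicate A (1.87, adjusted p = 0.00232) or D (1.88, adjusted p = 0.0038). The averaged difference was 0.51 (SE 0.19, adjusted p = 0.157), and it passed without the arrays that lay apart (0.66, adjusted p = 0.0476) or without AIN-76A replicate A (0.63, adjusted p = 0.0232) or D (0.64, adjusted p = 0.0242) at 100 ppb.

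Hsd11b1, the enzyme that reactivates the hormone, did not pass between diets. Its group means ran between 11.23 and 11.06 in all 5-week groups but 1, which was AIN-76A with 100 ppb in water at 10.53 ± 0.84 (SD, n = 4). The diet difference in controls was 0.17 (SE 0.20, adjusted p = 0.959). At 100 ppb in water the LRD-5001 arrays gave 11.36, 11.07, 11.17, 11.29 and 11.19, against 11.36, 10.34, 9.43 and 10.99 on AIN-76A in replicates A to D. Replicates B, C and D of AIN-76A lay below all LRD-5001 arrays and replicate A at the top of their range. The difference was 0.69 (SE 0.21, adjusted p = 0.0862), and it passed without the arrays that lay apart (0.85, adjusted p = 0.0485), without AIN-76A replicate A (0.96, adjusted p = 0.00272) or without D (0.84, adjusted p = 0.0406).

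Nr3c1, the receptor itself, had group means that spanned 0.68, from 8.04 ± 0.23 in LRD-5001 mice with 100 ppb in water (SD, n = 5) to 7.36 ± 0.22 in AIN-76A mice with 100 ppb in water (SD, n = 4). In these groups the LRD-5001 arrays gave 8.21, 7.67, 7.99, 8.17 and 8.18 (replicates A, B, D, E and F) and the AIN-76A arrays 7.60, 7.28, 7.10 and 7.46 (replicates A to D). Every LRD-5001 array lay above every AIN-76A array, as was the case for 1 of the 6 genes and for 4.3% of all probe sets. Nr3c1 rose on LRD-5001 by 0.69 (SE 0.16, adjusted p = 0.019), a 1.61-fold higher level. The call was lost without AIN-76A replicate B (0.66, adjusted p = 0.0832) or C (0.60, adjusted p = 0.0789), or without LRD-5001 replicate A (0.64, adjusted p = 0.0596), and with only the compared groups in the fit (adjusted p = 0.0966). The other 5 probe sets of Nr3c1, with means of 2.19 to 5.91, differed by 0.13 to 1.25 in the same direction and none passed (adjusted p from 0.0998 to 0.748). Without the 100 ppb level the averaged difference of Nr3c1, 0.16 (SE 0.08), was -0.01 (SE 0.09).

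Fkbp4, the immunophilin that favours nuclear transport, was not called in any comparison. Its diet differences ran from 0.13 (SE 0.28) in controls to 0.53 (SE 0.29) at 100 ppb in water (adjusted p = 0.444), and its averaged difference was 0.26 (SE 0.14, 95% interval -0.02 to 0.55). The single lowest value, 5.69, was again AIN-76A replicate B at 100 ppb in water, against 7.12, 7.25 and 7.84 in replicates A, C and D.

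The AIN-76A group with 100 ppb in water stood at the end of the order of the 12 group means for 5 of the 6 genes: it was lowest for Nr3c1, Hsd11b1, Akr1d1 and Fkbp4, and highest for H6pd, while for Serpina6 it was the lowest but 1. How often it stood at an end over all probe sets was not counted. This group, the smallest with 4 arrays, also had the largest SD of the 12 for Hsd11b1, Serpina6, Akr1d1 and Fkbp4. Against AIN-76A controls its differences were -1.09 for Serpina6 (SE 0.40, adjusted p = 0.369), -0.92 for Akr1d1 (SE 0.45, adjusted p = 0.557), -0.53 for Hsd11b1 (SE 0.21, adjusted p = 0.424), -0.40 for Fkbp4 (SE 0.29, adjusted p = 0.757), -0.34 for Nr3c1 (SE 0.16, adjusted p = 0.551) and 0.48 for H6pd (SE 0.14, adjusted p = 0.221). By limma 0 of 6 passed, and 0.00888% of all probe sets did. At an unadjusted p under 0.05 there were 5 of the 6 genes, and 3996 of the 45037 probe sets. Without replicate A, Serpina6 (-1.58, adjusted p = 0.029), Hsd11b1 (-0.80, adjusted p = 0.0341) and H6pd (0.66, adjusted p = 0.00826) passed. Over all 45037 probe sets, 572 passed in that fit, against 4 with replicate A included. Replicates B and C, low for Serpina6, Akr1d1 and Hsd11b1, also had the highest values of the 4 for genes of acute inflammation: Lcn2, an acute phase protein, was 12.50 and 12.42 there, against 6.51 and 10.03 in replicates A and D. The summed neutrophil markers, 6 of 7 listed genes measured, were 8.93 and 8.85 there, against 5.35 and 7.53 in replicates A and D, and 5.12 to 7.0 in AIN-76A controls. Of those markers S100a8 was 7.42 and 7.67 in B and C and 2.14 and 6.35 in A and D. The receptor target Fkbp5 was 8.82 and 8.55 in B and C, against 5.17 and 5.86 in A and D. AIN-76A control replicates C, the array of its group that lay apart, and E had the highest Lcn2 of the controls, 11.33 and 11.71. They were also the lowest AIN-76A controls for Akr1d1 (5.93 and 6.72), Hsd11b1 (10.89 and 10.69) and Nr3c1 (7.09 and 7.62), and the highest for H6pd (9.29 and 9.31). Serpina6 was 9.40 and 8.96 there, against 8.76 to 9.76 in the other controls. The summed neutrophil markers were 7.0 and 6.28 in control replicates C and E, and 6.76 in F. In F, Akr1d1 was 7.21 and Nr3c1 was 8.06. On LRD-5001 with 10 ppb in food, Lcn2 was 10.83 and 11.25 in replicates C and D and 3.76 to 7.79 in the others. Akr1d1 was 7.63 and 7.67 in C and D, against 7.42 to 8.14 in the others. On LRD-5001 against AIN-76A at 100 ppb, 3 of the 6 neutrophil markers fell, with differences of -3.21 for S100a8 (SE 0.67), -3.01 for S100a9 (SE 0.62) and -0.83 for Ngp (SE 0.22), and so did 1 of 6 hepatocyte markers, Hnf4a, with -0.55 (SE 0.14). Of the other marker lists, Sox9 of 5 bile duct markers fell with -0.63 (SE 0.16, adjusted p = 0.0267) and Cela1 of 8 adrenal and pancreas markers rose with 0.88 (SE 0.23, adjusted p = 0.0323). The part of these markers in the results at 100 ppb was not tested.

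**Figure D3:**
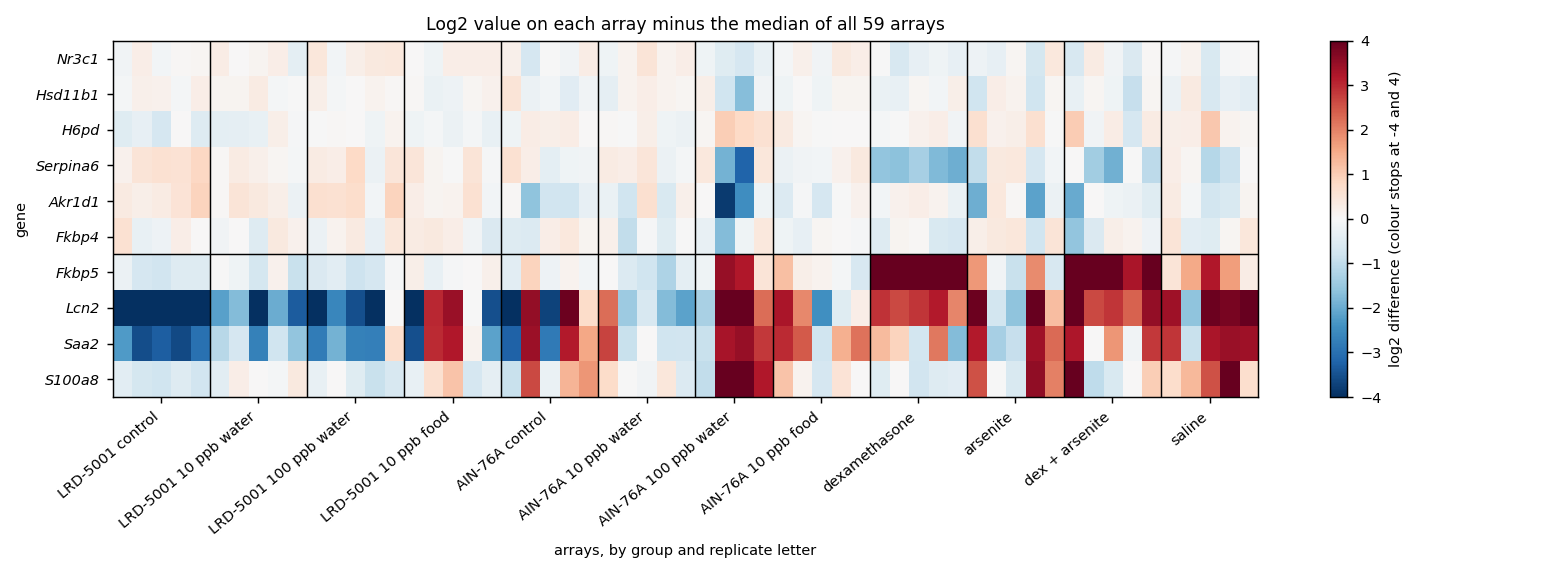
Log2 value on each array minus the median of all 59 arrays (colour) for the 6 genes and, below the line, for Fkbp5, Lcn2, Saa2 and S100a8 (y axis), with the arrays side by side in their 12 groups (x axis). Replicates B and C of AIN-76A with 100 ppb in water are low for Serpina6 (7.25 and 5.94) and Akr1d1 (3.71 and 5.04), and high for Lcn2 (12.50 and 12.42).

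In the other 5 comparisons of chronic arsenite with the control of the same diet, 0 of 6 genes passed, as did 0% of all probe sets by limma. An unadjusted p under 0.05 occurred once, for H6pd at 100 ppb in water on LRD-5001, which was higher than in LRD-5001 controls by 0.40 (SE 0.14, adjusted p = 1). In that comparison 1055 of the 45037 probe sets had an unadjusted p under 0.05. Exposed arrays there gave 8.97, 9.04, 9.0, 8.83 and 9.14 and controls 8.53, 8.66, 8.34, 9.0 and 8.47, with control replicate E inside the exposed range. Differences of the 6 genes at 10 ppb ran from -0.21 to 0.52 in water and from -0.05 to 0.46 in food on AIN-76A, and from -0.41 to 0.22 in water and from -0.33 to 0.23 in food on LRD-5001. The standard errors in these comparisons were 0.14 to 0.42, and at 10 ppb the 95% intervals reached as low as -1.17 for Serpina6 and as high as 1.38 for Akr1d1. Whether the response to arsenite differed between diets was tested as an interaction, and 0 of 6 genes and 0% of probe sets passed at each of the 3 exposures. The smallest unadjusted p was that of Nr3c1 at 100 ppb in water, with a change of 0.25 (SE 0.16) on LRD-5001, one of -0.34 (SE 0.16) on AIN-76A and a difference between them of 0.59 (SE 0.23, adjusted p = 0.736).

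After dexamethasone injection 0 of the 6 genes passed, and only Serpina6 had values apart from those after saline. Serpina6 read 7.55, 7.49, 7.80, 7.39 and 7.20 after dexamethasone (replicates A, C, D, E and F) and 9.40, 9.21, 7.99, 8.29 and 9.14 after saline (replicates A, B, C, E and F). Every dexamethasone array lay below every saline array, which held for 1 of 6 genes and 3.81% of probe sets, and the group was the lowest of all 12 for Serpina6 at 7.48 ± 0.22 (SD, n = 5). The difference of -1.32 (SE 0.36), a 2.5-fold lower level, missed the threshold at an adjusted p of 0.0794. Over the alternatives the adjusted p ran from 0.019 to 0.206 and passed in 5 of 21, among them the fit with all 59 arrays (0.0408) and the one without saline replicate C (0.0438). By limma, 0 of the 6 genes passed, against 1.74% of all probe sets. At an unadjusted p under 0.05 there was 1 of the 6 genes, and there were 5039 of the 45037 probe sets. The summed neutrophil markers were 4.97 to 5.18 after dexamethasone and 5.97 to 11.08 after saline, the summed Kupffer cell markers 9.85 to 10.33 after dexamethasone and 9.88 to 12.34 after saline, and their part in the Serpina6 difference was not tested. The other differences were -0.36 for Fkbp4 (SE 0.32), -0.32 for H6pd (SE 0.24), -0.19 for Nr3c1 (SE 0.21), 0.18 for Hsd11b1 (SE 0.23) and 0.24 for Akr1d1 (SE 0.45).

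After dexamethasone and arsenite together Serpina6 read 9.14, 7.76, 7.21, 9.11 and 8.10 (replicates A, C, D, E and F). Replicates A, E and F lay in the saline range and replicates C and D in the dexamethasone range. The difference from saline was -0.54 (SE 0.36, adjusted p = 0.713), that from arsenite alone -0.69 (SE 0.36, adjusted p = 0.556), and that from dexamethasone alone 0.78 (SE 0.36, adjusted p = 0.999). Fkbp5 was 10.15 in replicate A, within the 9.64 to 10.17 of replicates C, D and F. It was 8.61 in replicate E, the array of this group that lay apart. Replicate A also had the highest summed neutrophil markers of its group, 9.34 against 5.01 to 5.99 in the others, and the lowest Akr1d1, 5.50 against 7.03 to 7.53. Their part in the Serpina6 values was not tested. In these 3 comparisons 0 of 6 genes passed, with 0, 0 and 1 at an unadjusted p under 0.05, where 0.926% of probe sets passed against saline, 0.881% against arsenite and 0% against dexamethasone. Of the 45037 probe sets, 4406, 4590 and 1744 had an unadjusted p under 0.05 in these comparisons. The interaction of dexamethasone and arsenite was 0.63 (SE 0.52, adjusted p = 1) for Serpina6, and 0 of 6 genes and 0% of probe sets passed it.

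Arsenite injection alone gave no call among the 6 genes or among all probe sets (0% by limma), and no member had an unadjusted p under 0.05. Akr1d1 split within the group, at 5.57, 7.94, 7.59, 5.40 and 7.31 in replicates A, B, D, E and F, against 7.86, 7.44, 6.78, 6.91 and 7.64 in saline replicates A, B, C, E and F. Replicates A and E lay below all saline arrays and the other 3 arrays within or above their range. Hsd11b1 split in the same replicates, with 10.35 and 10.34 in A and E and 11.21 to 11.42 in the others, and Serpina6 was 8.14 and 8.47 in A and E and 9.03 to 9.57 in the others. Lcn2 was 11.72 and 12.34 in A and E and 6.2 to 9.02 in the others, and the summed neutrophil markers were 7.46 and 8.45 there and 5.04 to 7.20 in the others. Among saline arrays the summed neutrophil markers were highest in replicates C and E, at 7.40 and 11.08, against 5.97 to 6.33 in the others. These replicates had the lowest saline values for Akr1d1 (6.78 and 6.91) and Serpina6 (7.99 and 8.29). Hsd11b1 was 10.51 and 10.81 there, against 10.73 to 11.51 in the others. Lcn2 did not split the saline arrays in this way. It was highest in replicate F, 11.73 and 11.61 in C and E, 11.18 in A and 6.18 in B. In replicates A and F, Akr1d1 was 7.86 and 7.64, and Serpina6 was 9.40 and 9.14. The part of these markers in the values after arsenite and saline was not tested. The difference of Akr1d1 from saline was -0.56 (SE 0.45, adjusted p = 1).

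**Figure D4:**
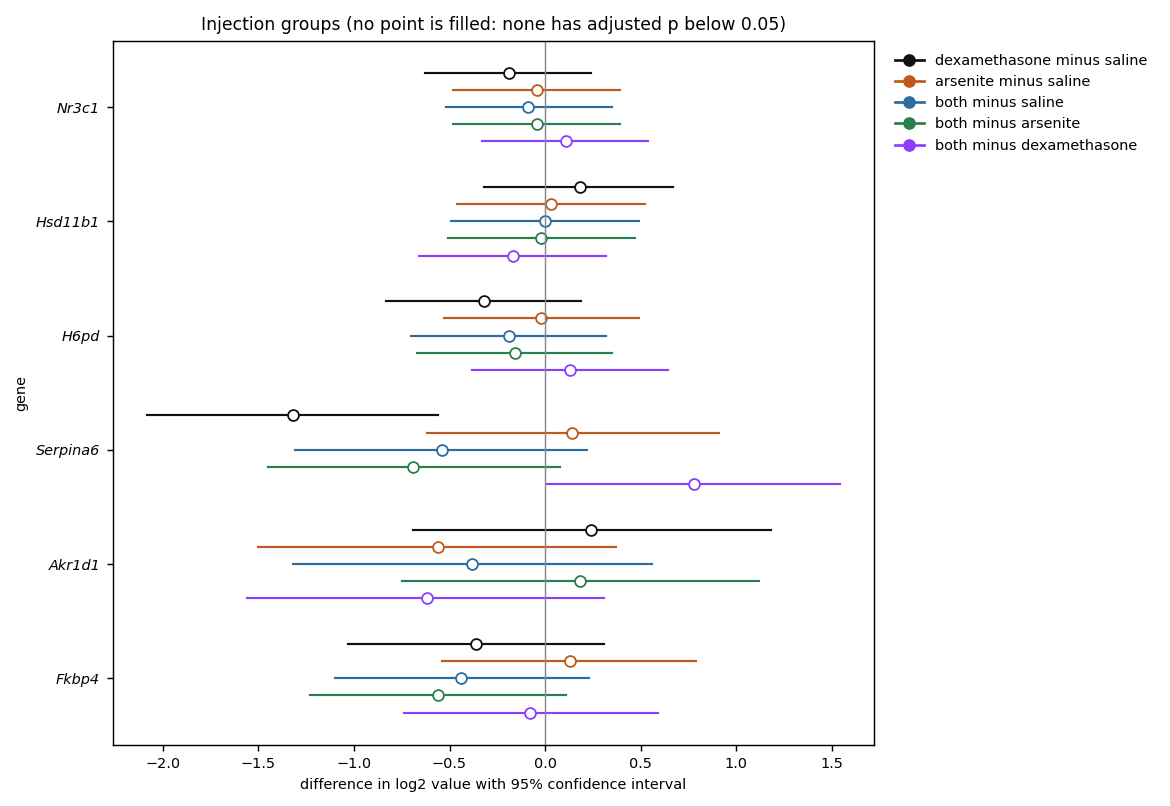
Difference in log2 value with its 95% confidence interval (x axis) for each gene (y axis) in 5 comparisons of the injection groups. No point is filled because none passed the test, and the interval of Serpina6 for dexamethasone minus saline lies between -2.08 and -0.56.

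Saline-injected mice and uninjected AIN-76A controls belonged to different experiments, so injection and experiment cannot be told apart. In that comparison 0 of 6 genes and 0% of probe sets passed, with 0 genes at an unadjusted p under 0.05, and the differences ran from -0.37 (SE 0.38) for Serpina6 to 0.49 (SE 0.44) for Akr1d1.

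The other genes of the pathway were described by list. Of 17 other steroid-metabolising genes 15 were measured, and 10 rose and none fell on LRD-5001 in the averaged comparison (median 0.46). The largest were Cyp3a11, a steroid and drug hydroxylase, with 3.0 (SE 0.32, adjusted p = 3.3e-08), and Hsd17b6, which acts on androgen metabolites, with 2.33 (SE 0.27, adjusted p = 1.15e-07). Hsd3b2 rose by 1.39 (SE 0.22) and the oxysterol hydroxylase Cyp7b1 by 0.48 (SE 0.09). At 100 ppb in water 9 rose and none fell, and in controls 2 rose, Cyp3a11 by 3.02 (SE 0.63) and Hsd17b6 by 2.67 (SE 0.52). Of the genes that make, move or use glucose 6-phosphate or supply cytosolic NADPH, 8 of 10 were measured. In the averaged diet comparison 4 fell and 1 rose (median -0.15). Malic enzyme Me1 fell by 1.56 (SE 0.20), 6-phosphogluconate dehydrogenase Pgd by 0.72 (SE 0.10), glucose 6-phosphatase G6pc by 0.79 (SE 0.21) and Slc37a4 by 0.23 (SE 0.07). Isocitrate dehydrogenase Idh1 rose by 0.22 (SE 0.06). Slc37a4, the transporter that brings glucose 6-phosphate to H6pd in the endoplasmic reticulum, was the only gene of this list that passed after dexamethasone, where it rose by 1.54 (SE 0.19, adjusted p = 0.000199), and with arsenite present it rose by 1.25 over arsenite alone (SE 0.19, adjusted p = 0.00237).

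Around the receptor itself little passed. Of 16 chaperones 13 were measured, 0 passed in the averaged diet comparison (median 0.04), and at 100 ppb in water only Fkbp5 did, with -2.26 on LRD-5001 (SE 0.45, adjusted p = 0.00405). After dexamethasone only Fkbp5 passed among them, with 2.98 (SE 0.55, adjusted p = 0.00565). Of 12 coregulators and partners 10 were measured, and the mineralocorticoid receptor Nr3c2 alone passed in the averaged diet comparison, higher on LRD-5001 by 0.46 (SE 0.13, adjusted p = 0.0299). All 20 listed glucocorticoid targets were measured. After dexamethasone 3 rose and 1 fell, namely Fkbp5, the tryptophan dioxygenase Tdo2 with 0.99 (SE 0.21), Lpin1 with 1.76 (SE 0.40) and the gluconeogenic enzyme Pck1 with -1.68 (SE 0.39). In the averaged diet comparison 6 targets fell on LRD-5001, among them Igfbp1 with -1.56 (SE 0.32), Cdkn1a with -1.02 (SE 0.23) and Ddit4 with -0.77 (SE 0.18), and Tdo2 rose with 0.49 (SE 0.06). These lists were chosen with earlier results known, and over all genes the averaged diet comparison called 6.56% with a median of -0.01, and the dexamethasone comparison 2.55% with a median of -0.02.

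Other gene groups also passed the averaged diet comparison. Of 17 acute phase genes 10 fell and 0 rose on LRD-5001 in the averaged comparison (median -0.57), with a difference of -3.34 for Lcn2 (SE 0.74). The summed acute phase signal was 15.35 to 15.54 in LRD-5001 controls and 15.52 to 16.78 in AIN-76A controls. Of 16 clock genes measured 5 rose and 3 fell, and Arntl fell by 1.15 (SE 0.12). Kupffer cell markers fell in 3 of 9 cases, among them Clec4f with -0.40 (SE 0.09), and their summed signal was 10.33 to 10.73 in LRD-5001 controls and 10.61 to 11.57 in AIN-76A controls. Of the 6 neutrophil markers S100a8 and S100a9 fell, and of the 6 hepatocyte markers Hnf4a fell by 0.25 (SE 0.07). Their part in the diet differences of H6pd and Akr1d1 was not tested.

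Over the 12 group means, and among 3816 genes with a mean of at least 6, the pattern most like Akr1d1 was that of Klhl5 (r = 0.975), followed by Npc1 (0.956) and Rpa1 (0.951). For H6pd it was Pxmp4 (0.965), Steap4 (0.957) and Heatr1 (0.952), and for Serpina6 Nat8f1 (0.965), Rnf167 (0.961) and Coro1b (0.960). Hsd11b1 was matched best by the glutathione transferase Gstt1 (0.978), the glucuronosyltransferase Ugt2b1 (0.965) and Naa35 (0.954), Nr3c1 by Foxn3 (0.934), Tbl1x (0.923) and Spp2 (0.920), and Fkbp4 by Ddrgk1 (0.943), Acp1 (0.860) and Cyp2d13 (0.854). These are Pearson correlations given as a description, since the group means share their arrays across genes.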

How the data were processed

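The authors deposited log2 intensities summarised by RMA, per the submitters' processing notes, for 45101 probe sets on 59 arrays; version and settings: not given in the sources used here. RMA quantile-normalizes arrays together, so a shift shared by all probe sets cannot be seen. Total RNA came from frozen liver, per the labels' protocols. The 64 control probe sets were dropped, leaving 45037, of which 34945 had 1 gene symbol in the platform annotation, and 10092 had none or, in 932 cases, several. limma 3.58.1 in R 4.3.3 fitted group means to the 39 arrays of the 5-week experiment and the 20 injection arrays separately, and to all 59 for saline against AIN-76A controls, with Benjamini-Hochberg adjustment per comparison and threshold 0.05. Of the 21 comparisons only some were tested on simulated data, among them the averaged diet comparison and dexamethasone against saline. Members and lists were chosen with earlier results of these data known. Named genes are the members, up to 4 genes per list with the smallest p in a comparison, and the 3 most correlated genes; others singled out (among them Slc37a4 in the diet comparison, Hlf, Saa2, and the check and marker genes) were named after their values were seen. Summed markers are the log2 of summed linear values. Alternatives covered normalization, filters, probe sets, arrays in the fit, the variance prior, replicate letters and single arrays. RefSeq promoters (GRCm38.p6) were matched by symbol for 5 of 7 genes; Srd5a1 had no probe set of its own symbol. The lists were circadian clock, acute phase, glucocorticoid targets, receptor chaperones and coregulators, glucose 6-phosphate handling and NADPH supply, other steroid metabolism, and 10 marker lists. Endothelial, stellate, red cell and fat markers gave 0 calls in the averaged diet comparison, as did bile duct and adrenal or pancreas markers, and Ighm of the lymphocyte list fell.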

Additional observations from a re-analysis of the deposited data

Results flagged for a closer look

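Within the 72 sets of arrays of 1 gene in 1 group, 5 had an array farther from the others than Dixon's 95% critical value allows, where chance flags about 1 in 20 such sets. H6pd read 10.08 on saline replicate C, against 9.09 to 9.26 on the other saline arrays. Nr3c1 read 7.17 on the same array, against 7.72 to 7.92. Akr1d1 read 7.41 on replicate E of LRD-5001 with 100 ppb in water, against 8.14 to 8.41, and 5.50 on replicate A after dexamethasone and arsenite, against 7.03 to 7.53. Fkbp4 read 6.62 on replicate E after arsenite injection, against 7.67 to 7.95. None of these arrays is among the 12 that lay apart. The critical value was 0.71 for 5 arrays and 0.829 for the group of 4.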

How the results depend on the processing

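Of the 5 called differences none reversed under 162 alternatives, and 12 of these lost the call. Of the 121 differences not called, 27 of 2880 alternatives gained a call and 47 differences changed sign under some alternative, the largest of them 0.40 in size. The averaged diet comparison called 2 genes, 3 with the arrays apart left out (Serpina6, 0.66, adjusted p = 0.0476), 2 to 3 without single arrays, and 1, H6pd, with the 100 ppb level left out, an alternative chosen after seeing the data. The diet comparison at 100 ppb called 3 genes, 5 with dim probe sets (mean under 4) or the arrays that lay apart left out, 0 when only the groups compared were fitted, and 0 to 5 when single arrays were left out. In diet controls 1 gene, H6pd, was called after quantile normalization, with dim probe sets left out, with 1 probe set per gene and with a block for the arrays apart, and 0 to 1 without single arrays. For dexamethasone against saline 1 gene, Serpina6, was called with dim probe sets left out, all 59 arrays in 1 fit, only the groups compared and a block for the arrays apart, and 0 to 1 without single arrays. For 100 ppb in water against AIN-76A controls, leaving out single arrays gave 0 to 3, and over all probe sets 572 passed without replicate A at 100 ppb. The cause of these changes was not tested. In the other 16 comparisons the count stayed at 0 under every alternative run. With the replicate letter as a replicate block, 2 genes were called at 100 ppb in water, where Nr3c1 lost its call (0.61, adjusted p = 0.0693), 2 in the averaged diet comparison and 0 elsewhere. The letters did not pair the arrays: deviations of arrays with the same letter had a median correlation of -0.035 over 136 pairs, and -0.007 over 679 pairs of different letters. With 4 or 5 arrays a group, the precision is limited: the 95% interval of Akr1d1 between diets at 100 ppb ran from 1.24 to 3.06. Over all probe sets, apart from leaving out single arrays, the count called ran from 157 to 434 for diet in controls (256 as reported), from 38 to 2178 at 100 ppb in water (924, and 549 with the replicate block), from 1034 to 3053 averaged (1919), from 0 to 661 for 100 ppb against AIN-76A controls (4), and up to 1371 for dexamethasone against saline (782). It ran from 81 to 373 for diet at 10 ppb in water (155), down to 83 at 10 ppb in food (133), from 221 to 916 for both agents against saline (417) and from 119 to 846 against arsenite (397). Of the comparisons with 0 such calls, 3 gave calls under some alternative: 26 for the diet interaction at 100 ppb, 16 for both agents against dexamethasone and 2 for 100 ppb against LRD-5001 controls.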
